A study of Homo sapiens with 3 samples.

Results

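The genes described here are IGFL1, IGFL2 and IGFL2-AS1 of the insulin growth factor-like locus, the long noncoding RNA UCA1, ASB2 and CCDC85B. All of these 6 but IGFL2, a scarcely detected gene of the locus, stood near the lower end of the comparison between TPF-resistant FaDu cells and FaDu cells. They were found by symbol among the 58735 genes of each matrix, and all 6 were present in all 3. FaDu is an established squamous cell carcinoma line from the human hypopharynx, and TPF stands for paclitaxel, cisplatin and 5-fluorouracil given together. The study held 1 single-cell RNA library of FaDu cells given cinobufotalin, a toad-venom steroid of the bufadienolide class (the FaDu library), 1 of the TPF-resistant FaDu line given TPF (the resistant TPF library) and 1 of that line given TPF together with cinobufotalin (the resistant TPF cinobufotalin library). Values below follow this order. Neither doses, times nor the way the resistant line was derived are given in the sources used here, and FaDu cells without cinobufotalin or with TPF were not analysed here. With 1 library per group, the cell line, the treatment and the library cannot be told apart, no difference between groups was tested, and every interval is a 95% exact interval for counting error only.

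IGFL proteins are small secreted cysteine-rich proteins made mainly by epithelia, and IGFL1 is known in keratinocytes as a gene induced by tumour necrosis factor (TNF) and by skin inflammation. IGFLR1, a cell surface receptor related to the TNF receptors, is their described receptor, and the noncoding IGFL2-AS1 has been described in breast cancer cells as acting on IGFL1 transcription. UCA1 is a cytoplasmic and nuclear noncoding RNA first described in bladder cancer and often studied for drug resistance. ASB2 is the substrate-binding subunit of a cullin 5 ubiquitin ligase that degrades filamins, and CCDC85B is a coiled-coil protein that binds catenins of the p120 family.

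By GENCODE release 29 on GRCh38, IGFL2 lies at chr19:46143106-46161299 on the plus strand, IGFL2-AS1 at chr19:46189166-46203083 on the minus strand and IGFL1 at chr19:46229752-46231243 on the plus strand. In that annotation IGFL2-AS1 does not overlap IGFL2, from which it is 27.9 kb away, and it lies 26.7 kb from IGFL1. UCA1 lies on the other arm of the same chromosome, at chr19:15828206-15836326 on the plus strand, where LINC01764 overlaps it on the opposite strand at 3.06, 4.28 and 4.26 CPM (UMI counts scaled to 1 common total per library). ASB2 lies at chr14:93934153-93976791 on the minus strand and CCDC85B at chr11:65890112-65891635 on the plus strand.

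RefSeq promoter windows, running from 250 bases before the start of transcription to 50 after it (GRCh38.p14), were found for 4 of the 6 genes, with 5 windows in all because ASB2 has 2. The windows of IGFL1 and IGFL2 are shown because of these neighbouring paralogs the first was detected and the second scarcely, and that of CCDC85B because it was the gene found in most cells. They run 5′ to 3′ on the plus strand at chr19:46229492-46229791, chr19:46147988-46148287 and chr11:65890423-65890722. Capitals mark matches on either strand to 4 motifs, and no match overlapped another. The AP-1 motif was searched as TGANTCA. The TEAD motif was searched as GGAATG. The TATA box was searched as TATAAA. The GC box was searched as GGGCGG, so that CCGCCC marks it on the other strand.
IGFL1: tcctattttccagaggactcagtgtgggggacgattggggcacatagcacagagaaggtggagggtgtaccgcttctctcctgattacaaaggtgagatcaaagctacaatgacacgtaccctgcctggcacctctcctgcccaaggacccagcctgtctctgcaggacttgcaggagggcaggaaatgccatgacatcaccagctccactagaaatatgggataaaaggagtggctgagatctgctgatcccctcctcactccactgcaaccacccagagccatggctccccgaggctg
IGFL2: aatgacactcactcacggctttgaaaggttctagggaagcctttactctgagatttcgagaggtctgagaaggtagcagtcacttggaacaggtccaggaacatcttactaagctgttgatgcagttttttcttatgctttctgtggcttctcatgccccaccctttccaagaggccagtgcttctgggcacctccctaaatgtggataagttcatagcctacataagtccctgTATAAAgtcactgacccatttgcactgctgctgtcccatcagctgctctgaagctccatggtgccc
CCDC85B: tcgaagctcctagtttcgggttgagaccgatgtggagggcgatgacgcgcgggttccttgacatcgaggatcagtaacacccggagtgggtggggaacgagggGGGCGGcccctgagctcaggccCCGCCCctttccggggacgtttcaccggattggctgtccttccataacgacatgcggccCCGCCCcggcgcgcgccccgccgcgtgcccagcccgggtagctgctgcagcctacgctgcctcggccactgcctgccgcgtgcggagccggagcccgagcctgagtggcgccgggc
CCDC85B held 3 GC boxes, which 45.0% of 35116 windows of that length hold at least once, and 70.7% of its bases were G or C against a median of 58.7%. IGFL2 held 1 TATA box match 16 bases before its RefSeq start, a motif present in 11.5% of windows. The windows of CCDC85B and IGFL2 lie inside the GENCODE spans given above, so their RefSeq starts differ from the starts of those spans. The IGFL1 window and both ASB2 windows held none of the 4 motifs. The AP-1 motif occurs in 7.71% and the TEAD motif in 14.0% of windows. A match is a run of letters, and whether any factor binds there was not measured.

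The level of 5 of the 6 genes was highest in the FaDu library, and the sixth, IGFL2, was scarcely detected. IGFL1 was at 231 CPM (229 to 234) in the FaDu library, 76.7 CPM (75.2 to 78.2) in the resistant TPF library and 92.8 CPM (91.2 to 94.4) in the resistant TPF cinobufotalin library. IGFL2-AS1 was at 92.3 CPM (90.8 to 93.8), 30.0 CPM (29.1 to 31.0) and 41.3 CPM (40.2 to 42.4). Both genes of the locus therefore had the order FaDu, resistant with cinobufotalin, resistant without it, with no overlap of the counting intervals. IGFL2 had 1, 2 and 2 UMIs in all, under the floor of 3 counts, so no ratio is given for it.

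**Figure D1:**
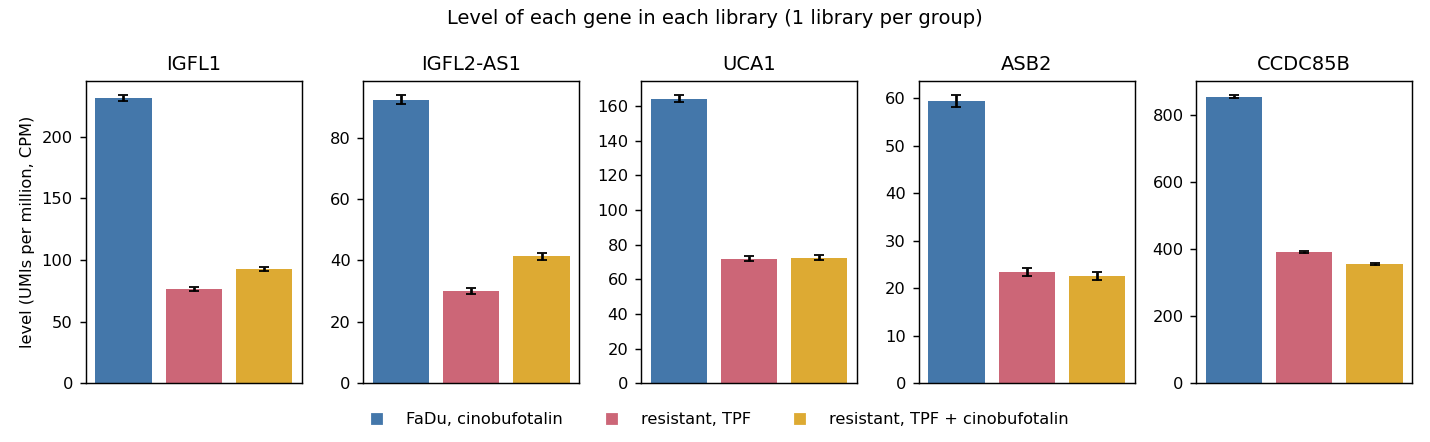
Level of each gene in CPM (bars start at 0; error bars are 95% counting intervals) in the 3 libraries, 1 per group. In every panel the FaDu bar is the tallest, and the 2 resistant libraries stand close together, with IGFL1 at 76.7 and 92.8 CPM and CCDC85B at 391 and 355 CPM.

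UCA1 was at 164 CPM (162 to 166), 71.8 CPM (70.4 to 73.3) and 72.5 CPM (71.1 to 73.9), so that the 2 resistant libraries did not differ beyond their counting intervals. ASB2 was at 59.4 CPM (58.2 to 60.6), 23.4 CPM (22.5 to 24.2) and 22.5 CPM (21.7 to 23.3), and its resistant libraries overlapped as well. CCDC85B was at 854 CPM (850 to 859), 391 CPM (388 to 394) and 355 CPM (352 to 359), which puts the resistant TPF cinobufotalin library lowest. The plot of levels by library shows these orders, with cinobufotalin above TPF alone for the IGFL genes, level with it for UCA1 and ASB2 and below it for CCDC85B.

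The genes were chosen by their low ratios of resistant to FaDu cells, so those ratios describe the choice and support nothing. Against the FaDu library, the log2 ratio of the resistant TPF library was -1.59 for IGFL1, -1.62 for IGFL2-AS1, -1.19 for UCA1, -1.35 for ASB2 and -1.13 for CCDC85B. All 5 genes measured at a mean of at least 10 CPM were at least 2-fold lower, as were 0.344% of the 8143 genes at that level, while 13.2% were at least 2-fold higher. In the resistant TPF cinobufotalin library the log2 ratios to the same FaDu library were -1.32, -1.16, -1.18, -1.40 and -1.27 in that gene order, and again all 5 were past 2-fold, with 0.761% of genes as much lower and 13.3% as much higher. The median gene lay at log2 ratios of 0.37 and 0.31, and relative to it the 5 genes lay at -1.99 to -1.50 in the resistant TPF library and at -1.71 to -1.47 in the resistant TPF cinobufotalin library. With TMM factors the median gene moved to -0.20 and -0.21. The share of calls that were higher went from 97.5% to 29.4% in the first comparison and from 94.6% to 28.3% in the second. All 5 genes were more than 2-fold lower under either scaling. With TMM factors 4.54% and 6.16% of all genes were at least 2-fold lower, against 0.344% and 0.761% without them.

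Between the 2 resistant libraries, which differ by cinobufotalin in the labels, none of the 5 genes was 2-fold apart, and the same holds for nearly all genes, with 0.0123% at least 2-fold lower and 0.0123% at least 2-fold higher. IGFL2-AS1 was 1.38-fold higher with cinobufotalin, a log2 ratio of 0.46 (0.40 to 0.52) that exceeded those of 99.8% of genes. IGFL1 was 1.21-fold higher, at a log2 ratio of 0.28 (0.24 to 0.31), above 97.1% of genes. The log2 ratio of UCA1 was 0.013 (-0.028 to 0.054) and that of ASB2 -0.052 (-0.12 to 0.020), and both intervals hold 0. CCDC85B was slightly lower, at -0.14 (-0.16 to -0.12), beside a median gene at -0.058. The 2 genes of the IGFL locus thus stood at the upper end of this comparison while UCA1, ASB2 and CCDC85B did not, and no replicate library shows how far such a difference varies.

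The rest of the IGFL family was nearly silent. IGFL2, IGFL3 and the pseudogenes IGFL1P1 and IGFL1P2 had at most 2 UMIs in any library, and IGFL4 was at 0.380, 0.525 and 0.623 CPM. The receptor gene IGFLR1 was at 1.08, 0.917 and 1.00 CPM. Of 8 genes listed as family and receptor, IGFL1 and IGFL2-AS1 were the 2 with a mean of at least 5 CPM. Of 10 genes known to be induced by TNF, all were measured and none was 2-fold lower or higher in any of the 3 comparisons. Their median log2 ratio to the FaDu library was 0.34 in the resistant TPF library, beside 0.37 for all genes. In that library 3 were at least 1.5-fold higher, as were 35.0% of all genes, and in the resistant TPF cinobufotalin library 1 was, as were 32.6%. The 3 were NFKB2, a subunit of the NF-kappaB factor, at 12.6, 23.8 and 18.8 CPM, the apoptosis inhibitor BIRC3 at 29.1, 51.6 and 49.6 CPM, and the chemokine CXCL8 at 592, 911 and 768 CPM. CCL20, another chemokine, was at 120, 170 and 167 CPM.

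For UCA1, 5 genes reported to bind it or to act downstream of it were all measured, and 1 was 2-fold higher and none 2-fold lower in either resistant library than in the FaDu library. Of all genes, 13.2% and 13.3% were as much higher and 0.344% and 0.761% as much lower. Counts over 5 genes thus show nothing particular to them. The higher gene was EZH2, the histone H3 methyltransferase, at 21.3, 83.2 and 78.8 CPM. CDKN1B, a cell cycle inhibitor, was at 8.86, 15.7 and 13.8 CPM, the glycolytic enzyme HK2 at 15.9, 11.9 and 13.0 CPM and the chromatin remodeller SMARCA4 at 34.1, 36.1 and 30.1 CPM. Among the 293 long noncoding genes with a mean of at least 10 CPM, 3 were at least 2-fold lower in each resistant library than in the FaDu library, against 53 and 66 at least 2-fold higher, with median log2 ratios of 0.47 and 0.49. Of all genes at that level, 0.344% and 0.761% were as much lower and 13.2% and 13.3% as much higher. UCA1 and IGFL2-AS1 were 2 of the 3 lower noncoding genes, which follows from their choice by low ratios. The other, found by this count, was ZSCAN16-AS1, with log2 ratios of -1.22 and -1.17.

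Of 7 ASB2 ligase subunits and filamin substrates, 6 had a mean of at least 5 CPM, and their median log2 ratios to the FaDu library were 0.0030 and 0.036, beside 0.37 and 0.31 for all genes. None was 2-fold lower in either resistant library, where 0.344% and 0.761% of all genes were, so that this count shows nothing particular to them. The scaffold CUL5 was at 31.5, 56.8 and 56.8 CPM, the adaptor ELOB at 949, 796 and 983 CPM, the filamin FLNA at 152, 135 and 116 CPM and the ring-finger subunit RNF7 at 467, 487 and 538 CPM. Of 9 genes of the CCDC85 family and the catenins, 6 had that level, and CCDC85B itself was the 1 that was 2-fold lower. PKP4, a catenin of the p120 family, was at 15.0, 29.4 and 31.6 CPM, TCF7L2, a Wnt pathway factor, at 20.3, 29.7 and 31.3 CPM, and beta-catenin (CTNNB1) at 50.3, 66.0 and 88.4 CPM. PKP4 was 2-fold higher in the resistant TPF cinobufotalin library than in the FaDu library, at a log2 ratio of 1.07, as were 13.3% of all genes.

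The libraries were deep enough for cell-level description: 6123, 4862 and 7525 cells passed the filters, at 24440, 27920.5 and 17867 UMIs in the median cell. Of 13 squamous epithelial markers all were measured, with a summed level of 7272, 5209 and 4002 CPM, and 2 and 9 of them were 2-fold lower in the 2 resistant libraries than in the FaDu library, beside 0.344% and 0.761% of all genes. Of the 6 fibroblast and 6 immune markers none had a mean of 5 CPM, with summed levels of 1.99, 3.67 and 3.32 CPM and of 2.61, 2.12 and 1.74 CPM; COL1A2 and LUM were at 0 in all 3 libraries, and DCN was at 0 in the FaDu library and PTPRC, CD3E and NKG7 in the resistant TPF library. Of 5 endothelial markers ERG alone did, with summed levels of 14.5, 25.4 and 29.2 CPM and CLDN5 at 0 in the FaDu library. MALAT1, a nuclear noncoding RNA, made up a median of 0.0892%, 0.795% and 0.731% of a cell's UMIs. Few barcodes were shared: 12 between the FaDu and resistant TPF libraries, 18 between the FaDu and resistant TPF cinobufotalin libraries and 19 between the resistant libraries.

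To compare cells at equal depth, each cell was thinned at random to 5000 UMIs, which left out 144, 205 and 571 shallower cells. IGFL1 was then found in 29.3% (28.1 to 30.4), 13.8% (12.8 to 14.8) and 16.0% (15.2 to 16.9) of cells, against 46.1%, 24.4% and 26.1% without thinning. IGFL2-AS1 was found in 30.1%, 11.2% and 14.9%, UCA1 in 50.4%, 27.6% and 27.9%, ASB2 in 21.1%, 9.13% and 9.30% and CCDC85B in 94.7%, 76.6% and 71.4% of thinned cells. Without thinning these shares were 64.2%, 31.8% and 31.8% for IGFL2-AS1, 87.4%, 70.0% and 58.1% for UCA1, 53.2%, 32.5% and 23.5% for ASB2 and 98.8%, 95.4% and 88.0% for CCDC85B. All 5 genes were thus found in a smaller share of resistant cells at equal depth, which largely follows from their choice by low ratios. In counts this sparse a lower level in every cell also lowers this share. A single cell line holds no cell type that should lack these genes and barcodes without cells were not used here, so the part of free RNA in these shares was not measured; IGFL2 was found in 0, 1 and 0 thinned cells.

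IGFL1 had the highest Fano factor of the 5 genes in each library. This ratio of variance to mean among thinned cells (1 for random sampling alone) was 8.08, 5.47 and 5.35 for IGFL1, while the median of genes at a like level was 1.17, 1.10 and 1.12, and at least 99.3% of those genes were lower in each library. Single thinned cells held up to 43, 33 and 29 IGFL1 UMIs. The mean among cells with at least 1 was 3.57, 2.74 and 2.70 UMIs. The Fano factor of the others was 1.60 to 1.62 for IGFL2-AS1, 1.19 to 1.31 for UCA1, 1.29 to 1.68 for ASB2 and 1.88 to 2.01 for CCDC85B. Among genes at their own level, IGFL2-AS1 was above 96.8%, 98.9% and 98.2%, ASB2 above 98.1%, 98.3% and 98.0%, UCA1 above 85.8%, 90.3% and 80.5% and CCDC85B above 71.4%, 89.5% and 88.5%. IGFL2-AS1 and ASB2 thus also ranked high for their level, at Fano factors well under that of IGFL1.

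Cells rich in IGFL1 were rarer in the resistant libraries. Cells with at least 10 IGFL1 UMIs of 5000 made up 2.26% (1.90 to 2.67) of the FaDu library, 0.494% (0.313 to 0.740) of the resistant TPF library and 0.575% (0.411 to 0.782) of the resistant TPF cinobufotalin library, 135, 23 and 40 cells. They held 35.0%, 17.5% and 18.0% of all IGFL1 UMIs. Cells with 3 to 9 UMIs made up 9.77%, 4.12% and 4.66%, and cells with 1 or 2 made up 17.2%, 9.17% and 10.8%. Each class of cells with IGFL1 was therefore smaller in the resistant libraries, and the class of 10 or more was smaller by the largest factor. That cells with IGFL1 were rarer there largely follows from its choice by a low ratio. In FaDu cells the median depth before thinning was 24314 UMIs in cells without IGFL1 and 26837 in those with at least 10, and in the resistant libraries it was 28137 against 29231 and 18443 against 21002.

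**Figure D2:**
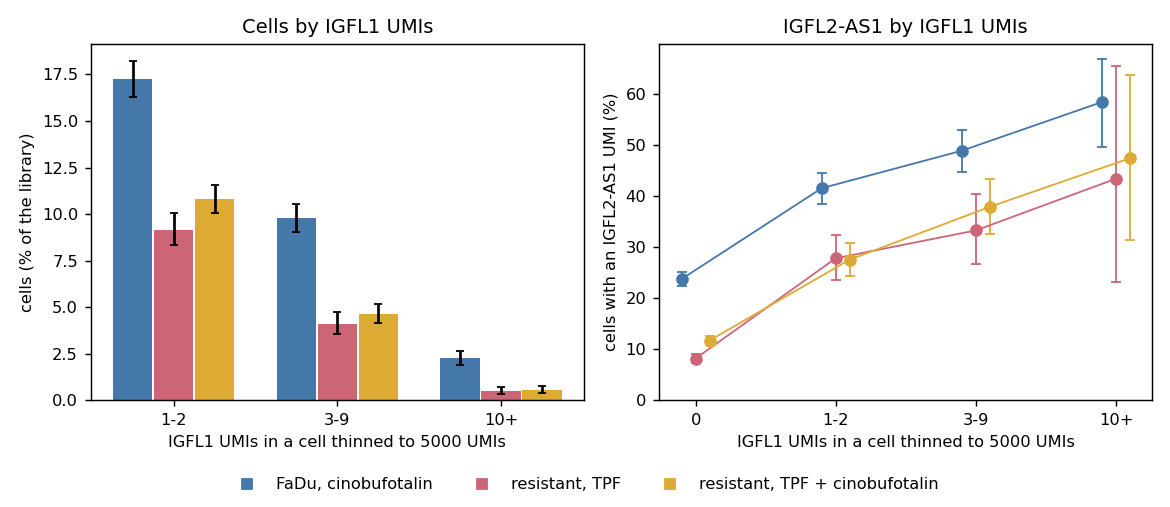
Left, share of cells (%) with 1 to 2, 3 to 9 and at least 10 IGFL1 UMIs after thinning to 5000 UMIs; right, share of cells (%) with an IGFL2-AS1 UMI in each class, lines joining the classes of a library, error bars 95% exact intervals. In all 3 libraries the IGFL2-AS1 share goes up with IGFL1, from 23.8% to 58.5% in the FaDu library.

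IGFL2-AS1 and IGFL1 were found in the same cells more often than their separate frequencies give, in every library. In the FaDu library IGFL2-AS1 was found in 23.8% (22.5 to 25.1) of cells without IGFL1, 41.6% (38.6 to 44.7) of those with 1 or 2 UMIs of it, 49.0% (44.8 to 53.1) of those with 3 to 9 and 58.5% (49.7 to 66.9) of those with at least 10. In the resistant TPF library these shares were 8.19%, 27.9%, 33.3% and 43.5%, and in the resistant TPF cinobufotalin library 11.7%, 27.6%, 38.0% and 47.5%. The share thus went up from class to class in each library, the last class of the resistant libraries resting on 23 and 40 cells. Both RNAs were found together in 794, 193 and 349 cells, against 527, 72.0 and 166 if they were independent. In cells of the same IGFL1 class, the share with IGFL2-AS1 was higher in the FaDu library than in either resistant library. The intervals overlapped only in the class of 10 or more. IGFL2-AS1 was itself chosen by its low ratio, which favours this order.

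Pearson's r between log2(1 + UMIs) of the 2 genes across thinned cells was 0.25 in the FaDu library (5979 cells), 0.25 in the resistant TPF library (4657 cells) and 0.22 in the resistant TPF cinobufotalin library (6954 cells). These cells share a library and a depth, so r is a description. Among cells called G1 it was 0.23, 0.23 and 0.22, and among cells with 0.2 to 1% MALAT1 it was 0.27, 0.27 and 0.24. Over all cells thinned to 5000 UMIs, no other pair of the 5 genes had an r above 0.1 in any library. The next was IGFL2-AS1 with UCA1, at 0.091, 0.074 and 0.064. This weak r moved with depth, to 0.15, 0.12 and 0.13 at 10000 UMIs per cell and to 0.22, 0.19 and 0.17 without thinning. In cells called G1 it was 0.11, 0.046 and 0.094, and in cells with 0.2 to 1% MALAT1 it was 0.12, 0.072 and 0.052. ASB2 with CCDC85B was at 0.12 in FaDu cells of that MALAT1 range, beside 0.0085 and -0.039 in the resistant libraries. IGFL1 and CCDC85B, which share a low ratio to the FaDu library, had r values of -0.036, -0.0081 and -0.0031 across cells.

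Over 5602 genes with a mean of at least 20 CPM, the gene most like IGFL1 across cells was S100A10, the annexin A2 partner protein, with a mean r over the libraries of 0.29 (0.36, 0.25 and 0.27). IGFL2-AS1 came next at 0.24, followed by the keratins KRT7 (0.17) and KRT18 (0.17) and the galectin LGALS1 (0.17), while 99% of genes stayed under 0.076. S100A10 averaged 17.6, 25.1, 30.3 and 41.0 UMIs per 5000 in FaDu cells with 0, 1 to 2, 3 to 9 and at least 10 IGFL1 UMIs. In the resistant TPF library these means were 8.87, 14.8, 17.6 and 15.5, and in the resistant TPF cinobufotalin library 10.6, 18.1, 20.2 and 24.3. S100A10 was itself at 4417, 1992 and 2362 CPM, in the same order of libraries as IGFL1, and KRT7 was not, with log2 ratios to the FaDu library of 0.66 and 0.67. For IGFL2-AS1 the most like genes were IGFL1, S100A10 (0.17), the zinc finger gene ZNF114 (0.094), LINC00431 (0.092) and MYOF (0.091), the membrane repair protein myoferlin.

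**Figure D3:**
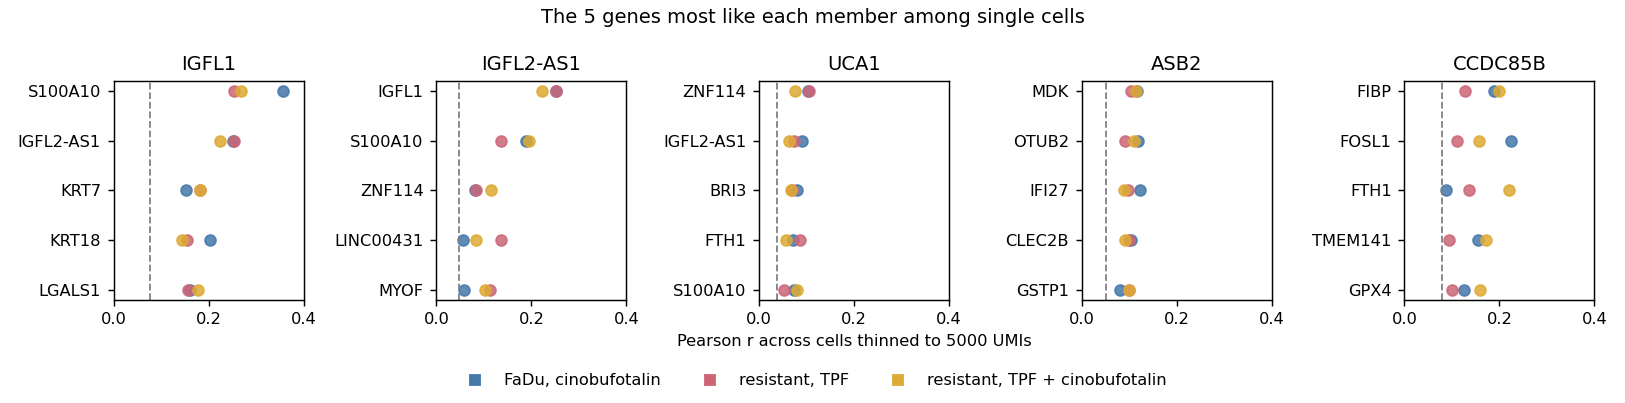
The 5 genes with the highest mean Pearson r to each gene across cells thinned to 5000 UMIs, 1 point per library on the horizontal axis; the dashed line is the mean r that 99% of 5602 genes stayed under. IGFL1 and IGFL2-AS1 appear in each other's panel, and genes next to CCDC85B (FIBP, FOSL1) and near ASB2 (OTUB2, IFI27) in theirs.

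For CCDC85B the 2 most like genes were its 2 nearest measured neighbours, FIBP (mean r 0.17), which encodes a protein that binds fibroblast growth factor 1, and FOSL1 (0.16), the AP-1 subunit FRA1. FOSL1 ends 0.414 kb from the end of CCDC85B on the opposite strand and FIBP lies 1.57 kb away. FTH1 (0.15), the ferritin heavy chain, TMEM141 (0.14) and GPX4, which reduces lipid peroxides, (0.13) followed. For ASB2 the list was the growth factor MDK (0.11), OTUB2 (0.11), IFI27 (0.10), CLEC2B (0.098) and the glutathione transferase GSTP1 (0.093). OTUB2, a deubiquitinase gene 49.5 kb away, and IFI27, an interferon-induced gene 128 kb away, are neighbours of ASB2. For UCA1 all 5 were weak: ZNF114 (0.095), IGFL2-AS1 (0.076), BRI3 (0.072), FTH1 (0.072) and S100A10 (0.069).

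Among all 3107 pairs of genes at that level lying at most 50 kb apart, the median r was 0.014 and 99% stayed under 0.19. IGFL1 with IGFL2-AS1 ranked 20, CCDC85B with FIBP 41, CCDC85B with FOSL1 46 and ASB2 with OTUB2 101 from the highest. So neighbouring genes as a rule hardly went together across these cells. Of the pairs named, only IGFL1 with IGFL2-AS1 (0.24) was above 0.19. These pairs were taken from the lists of most like genes above, so a high rank follows from that choice. The ranks were not matched for level. The sources used here do not say if counting used the strand, and whether reads beyond the end of CCDC85B or FOSL1 were counted for the other was not tested.

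Around CCDC85B, 20 of 33 neighbours within 250 kb had a mean of at least 5 CPM. Of these 20, 10 were below the FaDu library in the resistant TPF library and 12 in the resistant TPF cinobufotalin library, beside 22.7% and 28.7% of all genes. Their median log2 ratios were -0.014 and -0.092, beside 0.37 and 0.31 for all genes. None of the 20 was 2-fold lower, a share near the 0.344% and 0.761% of all genes. FOSL1, the nearest, was at 822, 493 and 462 CPM, FIBP at 502, 316 and 285 CPM, the nuclease gene MUS81 at 35.7, 41.2 and 29.8 CPM and C11orf68 at 19.4, 16.8 and 15.5 CPM. The 2 nearest genes thus had the same order of libraries as CCDC85B, at log2 ratios in the resistant TPF library of -0.74 and -0.67. Around ASB2, OTUB2 was at 35.9, 37.0 and 34.4 CPM, the helicase gene DDX24 at 359, 578 and 558 CPM, IFI27L1 at 273, 196 and 196 CPM and IFI27 at 16787, 13348 and 14814 CPM. None of the 7 measured neighbours of ASB2 was 2-fold lower, again near the 0.344% and 0.761% of all genes. In each resistant library 1 of the 7 was 2-fold higher, beside 13.2% and 13.3% of all genes. Around IGFL1 the other measured gene was the phosphatase PPP5C, 116 kb away, at 19.9, 20.2 and 18.1 CPM. Around UCA1 it was TPM4, a tropomyosin 231 kb away, at 234, 273 and 231 CPM.

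The MALAT1 share of a cell differed between the FaDu library and the resistant libraries, and the level of IGFL1 was lowest in the cells with most MALAT1 in each library. In cells with at least 10000 UMIs and 2 to 8% mitochondrial UMIs, IGFL1 in the resistant TPF library was at 158, 111, 90.2, 78.1, 63.4 and 34.5 CPM in cells with 0 to 0.05, 0.05 to 0.2, 0.2 to 0.5, 0.5 to 1, 1 to 2 and at least 2% MALAT1. In the resistant TPF cinobufotalin library it was at 116, 144, 96.0, 89.2, 78.4 and 44.0 CPM, and in the FaDu library at 227, 195, 165, 192, 197 and 99.0 CPM. Over the 5 lower ranges of MALAT1 the highest level of IGFL1 was 1.38, 2.49 and 1.84 times the lowest. This was 1.20, 1.64 and 1.37 times for IGFL2-AS1, 1.22, 1.19 and 1.89 times for ASB2, 1.13, 1.32 and 1.24 times for UCA1 and 1.13, 1.12 and 1.16 times for CCDC85B. IGFL1 thus had the widest range in the FaDu and resistant TPF libraries, and ASB2 in the resistant TPF cinobufotalin library.

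**Figure D4:**
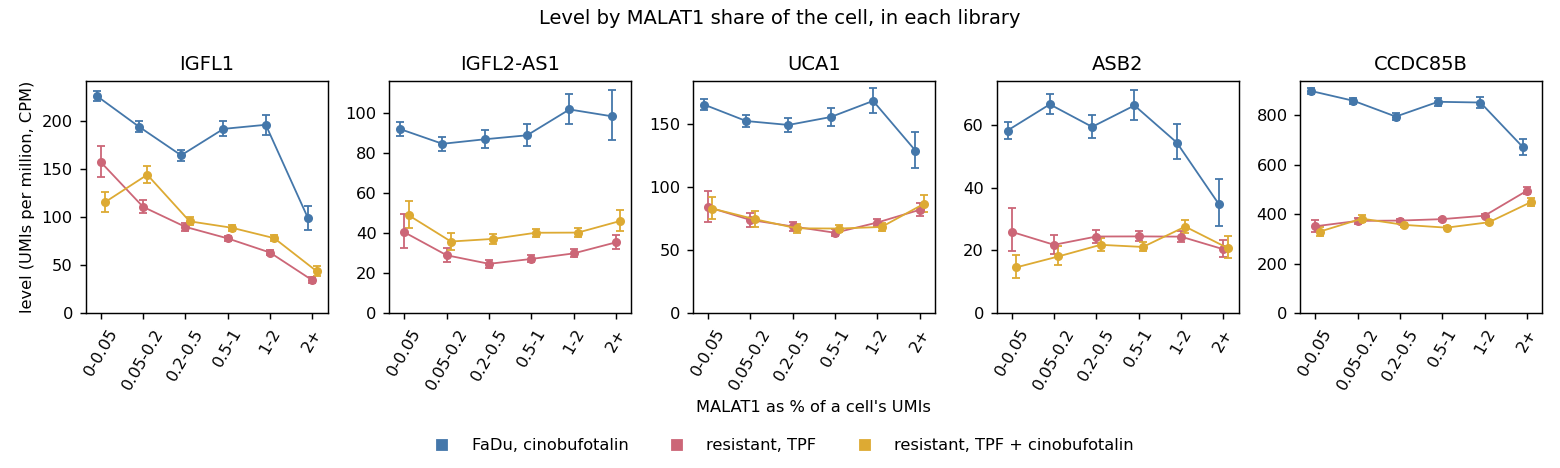
Level (CPM) of each gene in cells grouped by the share of MALAT1 among their UMIs (horizontal axis, %), for the 3 libraries, with 95% counting intervals. IGFL1 in the resistant TPF library goes from 158 CPM at the lowest MALAT1 share to 34.5 CPM at the highest, while CCDC85B goes from 351 to 495 CPM.

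Within the same range of MALAT1 all 5 genes were lower in both resistant libraries than in the FaDu library, by amounts that varied with the range. Their choice by low ratios favours this sign. The median gene lay between 0.18 and 0.24 in the resistant TPF library and between 0.011 and 0.23 in the resistant TPF cinobufotalin library. The log2 ratio of IGFL1 in the resistant TPF library was -0.52 (-0.68 to -0.37), -0.81, -0.87, -1.30, -1.63 and -1.52 from the lowest range to the highest, so it was under 2-fold in the 3 lowest. In the resistant TPF cinobufotalin library it was -0.97, -0.43, -0.78, -1.11, -1.33 and -1.17. For ASB2 the ratio in the resistant TPF cinobufotalin library was -1.99, -1.88, -1.44, -1.65, -0.98 and -0.74, and in the resistant TPF library it lay between -1.61 and -0.76. The ratio of IGFL2-AS1 in the resistant TPF library stayed between -1.81 and -1.18, that of UCA1 between -1.28 and -0.97, and that of CCDC85B between -1.35 and -1.08 over the 5 ranges up to 2% MALAT1. At 2% and over, CCDC85B was at -0.44 (-0.52 to -0.36), UCA1 at -0.65 and ASB2 at -0.76, with 118 FaDu cells there. The lowest range rests on 1158, 75 and 233 cells. There alone IGFL1 was lower with cinobufotalin than without it, at -0.44 (-0.64 to -0.25), against 0.09 to 0.38 in the other 5 ranges, and IGFL2-AS1 was at 0.27 (-0.09 to 0.64) in the lowest range and 0.31 to 0.59 in the others. ASB2 was lower with cinobufotalin in the lowest range, at -0.83 (-1.36 to -0.29), and between -0.27 and 0.18 in the others. The median gene of this comparison was at -0.22 in the lowest range and between -0.11 and 0.0030 in the others. In the lowest range 1.98% of genes were at least 2-fold lower with cinobufotalin. The ratios of IGFL1 and ASB2 thus moved with the MALAT1 share of the cells compared, whose part in the result was not tested.

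Cell cycle phases, called from S and G2/M genes in thinned cells of the 3 libraries together, gave G1 to 20.1%, 13.5% and 11.7% of cells. The S and G2/M genes had median log2 ratios to the FaDu library of 0.93 and 0.71 in the resistant TPF library. In the resistant TPF cinobufotalin library these were 0.82 and 0.72. Whether cells called G1 were alike between libraries was not tested. In the resistant libraries, cells called G1 had more IGFL2-AS1 (55.8 and 66.0 CPM) than those called S (26.7 and 38.8 CPM) or G2/M (26.8 and 38.1 CPM), while the FaDu library had 103, 96.6 and 88.2 CPM in G1, S and G2/M. UCA1 was at 96.3 and 99.0 CPM in resistant G1 cells against 65.8 to 71.3 CPM in the other phases, and CCDC85B at 497 and 461 CPM against 327 to 405 CPM. IGFL1 showed no such excess, with 63.1 and 79.3 CPM in G1, 68.5 and 78.4 CPM in S and 84.5 and 104 CPM in G2/M. ASB2 was at 18.9 and 19.4 CPM in resistant G1 cells and at 26.5 and 24.7 CPM in G2/M. In G1, S and G2/M of the FaDu library, UCA1 was at 170, 167 and 162 CPM and CCDC85B at 795, 870 and 868 CPM. IGFL1 was at 243, 215 and 233 CPM there and ASB2 at 48.2, 50.1 and 65.3 CPM. ASB2 was thus highest in G2/M in the FaDu library as well. The log2 ratio of resistant TPF to FaDu cells in G1 was -0.88 for IGFL2-AS1, -0.82 for UCA1 and -0.68 for CCDC85B, under 2-fold, but -1.95 for IGFL1 and -1.35 for ASB2. The same 3 genes were under 2-fold in the resistant TPF cinobufotalin library, at -0.64, -0.78 and -0.79, beside -1.62 for IGFL1 and -1.32 for ASB2.

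**Figure D5:**
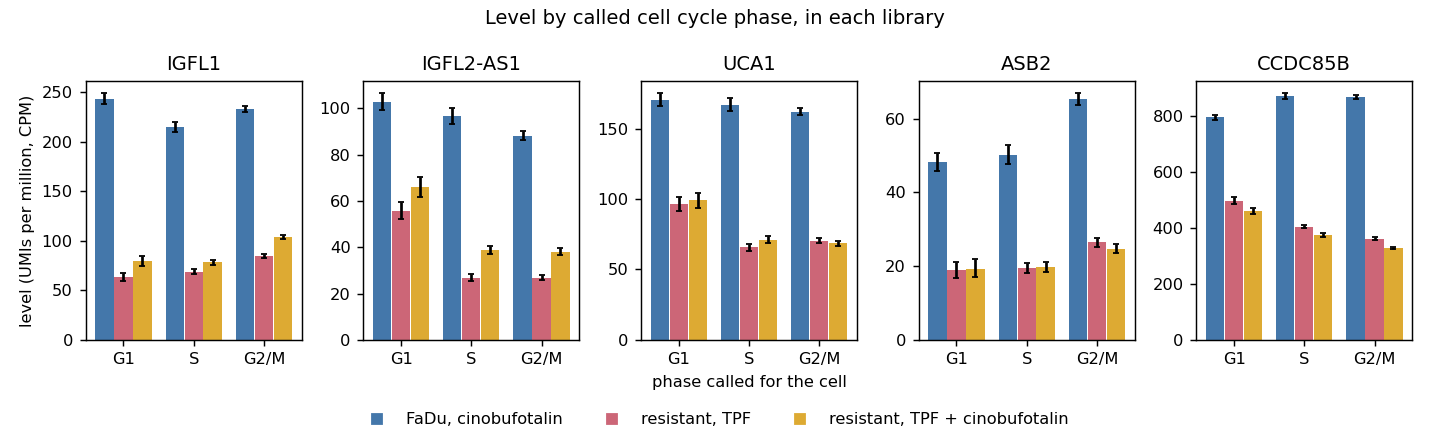
Level (CPM, bars from 0, with 95% counting intervals) of each gene in cells called G1, S and G2/M, for the 3 libraries. Resistant cells called G1 stand above the other phases for IGFL2-AS1, UCA1 and CCDC85B, and not for IGFL1 or ASB2; CCDC85B is at 497 CPM in resistant TPF cells called G1 and 361 CPM in those called G2/M.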

How the data were processed

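Droplet single-cell RNA sequencing (10x 3′ kit, version 3.1) gave 3 libraries, 1 per group. The deposited matrices hold raw UMI counts for each gene in each barcode. Reads were counted by the authors with Cell Ranger 7.0, build hg38, per the file headers and the submitters' processing notes. Which annotation was used, and whether introns and strand entered, is not given by the sources used here. Kept barcodes had at least 1000 UMIs in at least 500 genes, no more than 20% of them mitochondrial, with 165847771, 135176387 and 134802289 UMIs in all. Neither doublets nor free RNA were removed.

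Counts of all kept cells were added up and scaled to CPM. Ratios carry 95% Clopper-Pearson intervals, and called means at least 2-fold apart at a mean of at least 10 CPM. Cells were thinned to 5000 UMIs for shares, correlations and phases (scanpy 1.11.5). The genes, gene lists and comparisons were chosen with earlier results of these data known; the classes of IGFL1 UMIs and the pairs of neighbouring genes were added after these data were seen. All genes of the set were named, with up to 4 per list by largest ratio, up to 4 nearest measured neighbours and the 5 most like genes. Positions came from GENCODE 29 and promoters from RefSeq. Ratios and correlations were tested on simulated data. Python 3.11.15, numpy 2.4.6, scipy 1.17.1, pandas 2.3.3 and edgeR 4.0.16 in R 4.3.3 (TMM factors 0.778, 1.15 and 1.12) were used. Alternatives covered filters, scaling, depth, phase and MALAT1 share.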

Additional observations from a re-analysis of the deposited data

How the results depend on the processing

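Over 17 alternatives (cell filters, TMM factors, totals without mitochondrial and ribosomal protein genes, ratios relative to the median gene, equal weight per cell, thinning, 5 ranges of MALAT1 and 3 phases), all 5 measured genes stayed below 0 in both comparisons with the FaDu library, and the count at least 2-fold lower was 4 or 5 except in 4 cases. In the resistant TPF library it was 3 of 5 among cells with 0 to 0.05% MALAT1 and 2 of 5 among cells called G1. In the resistant TPF cinobufotalin library it was 2 of 5 in each of these. Of all genes, 1.72% and 1.08% were as much lower in these cells in the first comparison, and 5.38% and 0.675% in the second. Over the 17 alternatives that share went from 0.258% to 4.54% and from 0.504% to 6.16%. The range of 2% MALAT1 and over was not among these alternatives. There UCA1 (-0.65 and -0.57), ASB2 (-0.76 and -0.74) and CCDC85B (-0.44 and -0.58) were under 2-fold in both comparisons. The count was 0 of 5 between the resistant libraries under every alternative, beside at most 1.98% of all genes. In that comparison IGFL2-AS1 was between 0.24 and 0.59 and IGFL1 between -0.44 and 0.38. Of the 255 single ratios recomputed, 107 stayed within the counting interval of the reported value, 148 moved outside it and none that was 2-fold changed sign. The genes were chosen by low ratios to the FaDu library in these same data, so kept signs and counts largely follow from that choice. The correlation of IGFL1 with IGFL2-AS1 was 0.32, 0.26 and 0.31 at 10000 UMIs per cell and 0.40, 0.38 and 0.32 without thinning, higher than at 5000 UMIs. That of IGFL2-AS1 with UCA1 went up by more than 1.5 times, to 0.15, 0.12 and 0.13 and to 0.22, 0.19 and 0.17.

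The share of all genes at least 2-fold lower was 0.375% and 0.839% at a mean of 1 CPM and 0.517% and 0.999% at 50 CPM against the FaDu library. No paired analysis was possible because each group holds 1 library, and none could be left out. Depth limited IGFL2, at 1 or 2 UMIs a library, and the thinnest cell classes.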
